A study of Homo sapiens with 12 samples.

Results

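Semaphorins, their plexin and neuropilin receptors and the collapsin response mediator proteins (CRMPs) were followed as 1 set of genes in total RNA from A549 cells, an established line of human lung adenocarcinoma. The set was chosen by gene symbol (SEMA, PLXN, NRP1, NRP2, DPYSL and CRMP1), and 32 of the 22564 genes in the table belonged to it. They were 7 secreted semaphorins, 9 membrane-bound semaphorins, 9 plexins, 2 neuropilins and 5 CRMPs. Of 36 genes of these families that were looked for, SEMA5A, SEMA5B, SEMA6A and SEMA6D were not among the rows used here.

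The cells had been transfected with small interfering RNA against YTHDC1 (siYTHDC1, 6 libraries) or with a scrambled control (siSCR, 6 libraries), at 40 nM for 48 to 72 h, with no other treatment named in the labels. YTHDC1 is a nuclear protein that binds RNA carrying the methyl mark N6-methyladenosine. The level used here was the mean normalized count per gene over all 12 libraries, a value the authors deposited for both groups together. It holds no value per group or per library. The effect of YTHDC1 depletion on these genes, the knockdown itself, the spread between libraries and the depth of each library could therefore not be read from it, and every level below is 1 number without an SD. The labels do not say whether the libraries came from separate cultures.

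Semaphorins are guidance cues, first known for steering axons and since found in vessels, immune cells and tumours, where they act on migration and adhesion. Class 3 semaphorins are secreted and mostly bind a neuropilin, which holds the ligand while a plexin carries the signal across the membrane. The other classes found in vertebrates are bound to the membrane and mostly bind plexins directly. Plexins act as GTPase-activating proteins for small GTPases of the Ras family, and CRMPs are cytosolic proteins that bind tubulin and relay semaphorin signals to the cytoskeleton.

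The epithelial identity of A549, the cell line named in the labels, was checked first. The keratin genes KRT8 (mean normalized count 27600), KRT7 (17118) and KRT18 (14908) were among the highest of the table, with CDH1 at 1011 and KRT19 at 673, whereas the adhesion gene EPCAM stood at 58.4. Of 5 alveolar markers NAPSA alone was in the table, at 17.3, and NKX2-1, SFTPB, SFTPC and SFTPA1 were not among the rows used here. Of 8 neuronal markers, 4 were in it, with SYT1 at 598, SNAP25 at 264, RBFOX3 at 222 and MAP2 at 43.7, whereas ELAVL3, ELAVL4, STMN2 and GAP43 were not. Endothelial markers were represented by CDH5 (7.19) and CLDN5 (1.97), blood markers by CD14 (21.5), and fibroblast markers by COL1A1 (194), LUM (10.2) and PDGFRB (2.13). Further markers, among them PECAM1, VWF and TEK of endothelium, PTPRC, CD3E and LYZ of blood, and COL1A2 and DCN of fibroblasts, were not among these rows. YTHDC1 itself (chromosome 4, 69176105 to 69215808, minus strand, GRCh37) had a mean of 232. Whether cells of other kinds added to a level was not tested.

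The members ranged from a mean normalized count of 3.38 for SEMA3G, higher than 12.2% of genes in the table, to 6055 for NRP1, higher than 99.1%. A mean normalized count of at least 100 was reached by 20 of the 32 genes (62.5%), against 46.1% of all genes in the table and 70.0% of its 14100 protein-coding genes. At 1000 or more stood 8 members (25%), against 12.9% of all genes, and under 10 stood 4 members (12.5%), against 28.7%. All genes include many that are not protein-coding, and the share of protein-coding genes alone was not computed at these limits. Longer transcripts yield more reads, so the level was also divided by the length of the merged exons of each gene, and ratios between genes are given per kb unless named otherwise. On this scale of counts per kb of exon, the median of the members was 29.5, that of all genes with a length was 32.2 and that of protein-coding genes was 58.6. The members above the median of all genes numbered 15 of 32 (46.9%), so on this scale the set as a whole did not stand above the table. Without length scaling 22 of 32 stood above the median of all genes, and 15 above that of protein-coding genes. In the top 10% of genes by count per kb were 4 of the 32 members, and 5 were in the bottom 10%, both near the share over all genes.

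**Figure D1:**
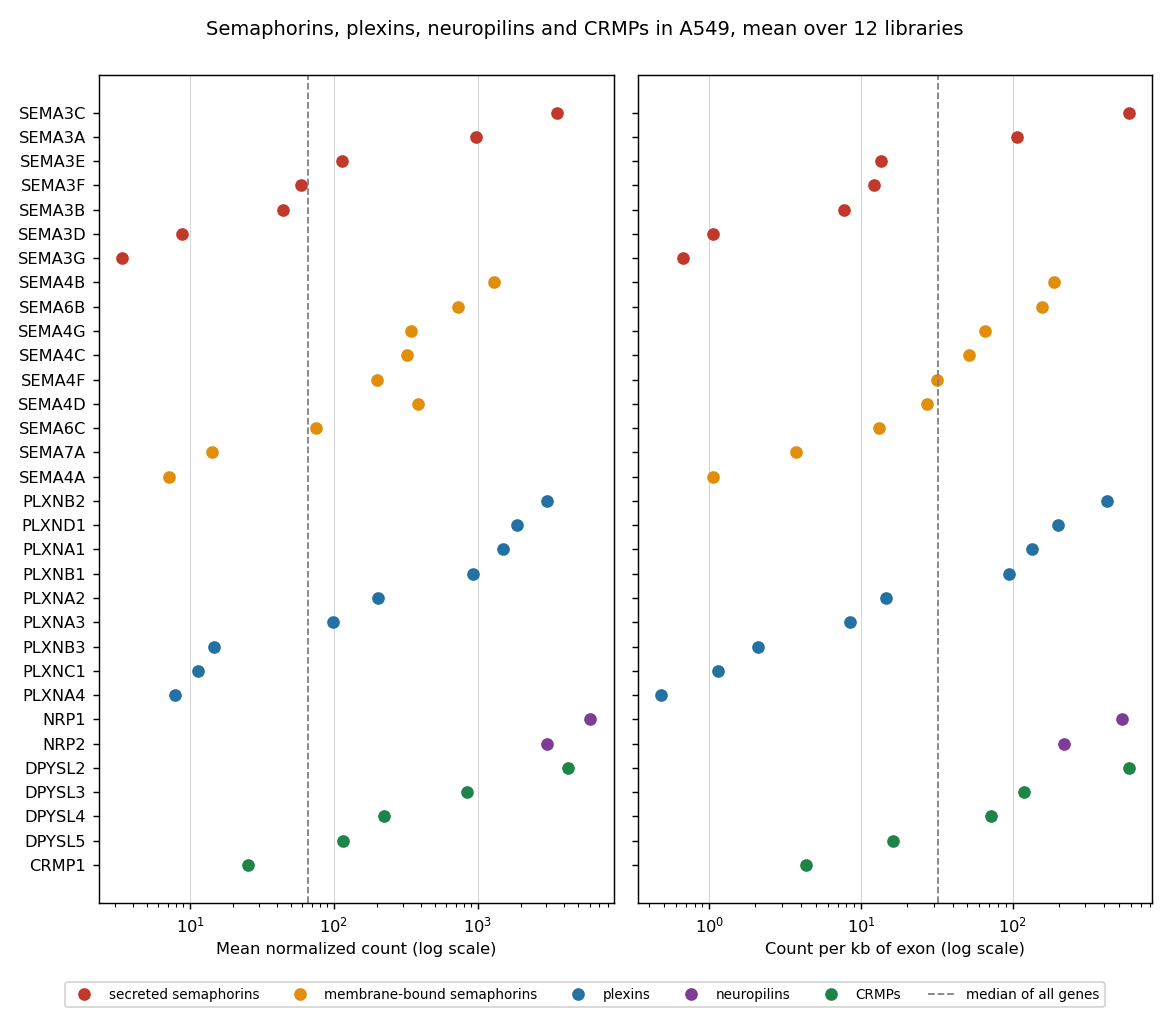
Mean normalized count over all 12 libraries (left, log scale) and the same count per kb of exon (right, log scale) for the 32 genes, 1 point per gene, coloured by role and ordered within each role by the right panel, with dashed lines at the medians of all genes. DPYSL2, SEMA3C, NRP1 and PLXNB2 lie farthest to the right on the length-scaled axis, at 582, 580, 526 and 416 counts per kb, and each of the plexin and semaphorin classes spreads over more than 2 decades.

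**Figure D2:**
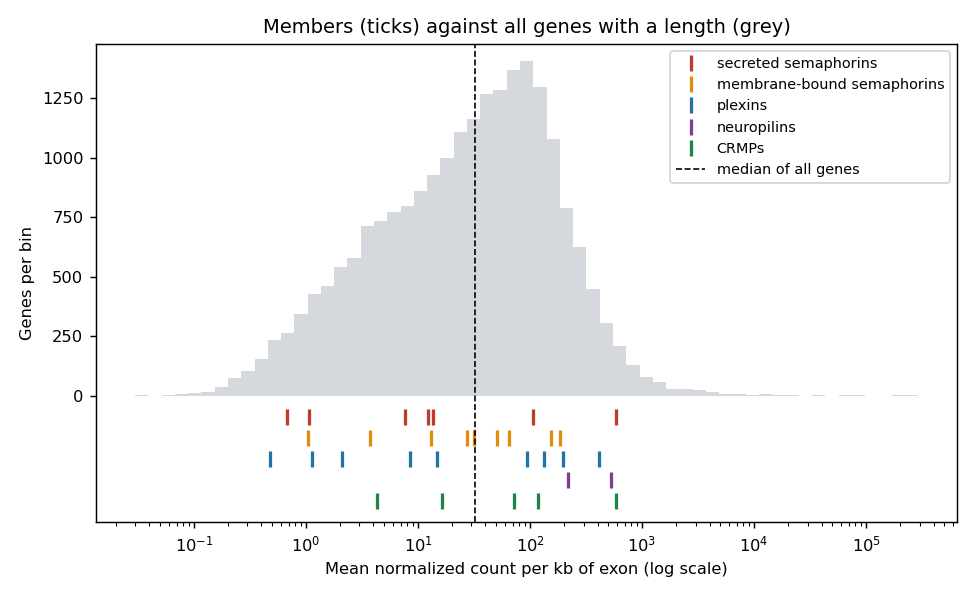
Number of genes per bin of mean normalized count per kb of exon (grey, log x axis) for the 21798 genes with a length, with 1 coloured tick per member in a row for each role and a dashed line at the median of all genes. The ticks of plexins and semaphorins spread over most of the grey range, whereas both neuropilins lie to the right of the median.

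Among the secreted semaphorins 1 gene made up most of the level. SEMA3C, a cue for neural crest and vascular cells that binds both neuropilins, had a mean normalized count of 3539, or 580 counts per kb, higher than 97.4% of genes on the length scale. It alone held 80.5% of the length-scaled level of the class. SEMA3A, the classical repellent of axons and a ligand of NRP1, followed with a mean of 978, or 106 counts per kb. SEMA3C thus stood 5.49 times above SEMA3A per kb, and SEMA3A stood 7.79 times above SEMA3E (mean 115, 13.6 counts per kb), which can bind PLXND1 without a neuropilin.

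The tumour suppressor candidates of chromosome 3, SEMA3F and SEMA3B, had means of 58.7 and 44.4, with 12.2 and 7.70 counts per kb. SEMA3F is mainly a ligand of NRP2. SEMA3D (mean 8.72, 1.06 counts per kb) and SEMA3G (mean 3.38, 0.67 counts per kb) were lowest in the class, and at such means few reads stand behind a value. From SEMA3C to SEMA3G the fold was 866 per kb, whereas the coding sequences of the 7 genes were of nearly equal length, 2253 to 2355 bases.

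Of the secreted semaphorins that lie near each other, those on chromosome 7 differed widely in level, and SEMA3F and SEMA3B on chromosome 3 did not. SEMA3C, SEMA3E, SEMA3A and SEMA3D follow each other on the minus strand of chromosome 7 (80371854 to 84816372, GRCh37), within 4.44 Mb. Along this stretch the means were 3539, 115, 978 and 8.72, and the highest and lowest differed by 549.3 times per kb. SEMA3F (chromosome 3, 50192478 to 50226508, plus strand) and SEMA3B (50304990 to 50314977, plus strand) are 0.078 Mb apart and differed by 1.58 times per kb. SEMA3G lies 2.15 Mb from SEMA3B, a smaller gap than the 2.44 Mb between SEMA3C and SEMA3E. It had 0.67 counts per kb, against 12.2 for SEMA3F, so with SEMA3G included the chromosome 3 genes also differed widely.

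The membrane-bound semaphorins were spread more evenly. SEMA4B (chromosome 15, 90703836 to 90772911, plus strand) led with a mean of 1302, or 186 counts per kb, which was 34.8% of the class. SEMA6B, a transmembrane semaphorin of the class that binds A-type plexins, came next with a mean of 729, or 155 counts per kb. The ratio of SEMA4B to SEMA6B was 1.20 per kb of exon and 1.90 per kb of the longest coding sequence.

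SEMA4G and SEMA4C, a ligand of PLXNB2, had means of 346 and 320.5, with 65.3 and 51.2 counts per kb. SEMA4F had a mean of 198, or 31.8 counts per kb. SEMA4D, a ligand of PLXNB1 that is also known as CD100 on T cells, had the higher mean of 386 but 27.2 counts per kb, since its merged exons add up to 14160 bases, the longest in its class. Per kb of its longest coding sequence (2586 bases) SEMA4D had 149 counts, more than SEMA4G (137) and SEMA4C (128), so its place in the order depends on the length used.

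SEMA6C had a mean of 75.1, or 13.0 counts per kb. SEMA7A, the semaphorin held in the membrane by a lipid (GPI) anchor, had a mean of 14.2, or 3.74 counts per kb. SEMA4A, known from immune cells and the retina, was lowest at 7.11, or 1.05 counts per kb, 177 times under SEMA4B on the length scale. In all, 6 of the 9 genes reached a mean of 100.

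Plexins fell into 4 genes of high level and 5 of low level. PLXNB2 (chromosome 22, 50713408 to 50746075, minus strand) had a mean of 3026, or 416 counts per kb, and held 48.0% of the class. PLXND1, a receptor known from blood vessels, followed at 1882, or 197 counts per kb, and PLXNA1, a partner of neuropilins, at 1502, or 134 counts per kb. PLXNB1, the receptor of SEMA4D, had a mean of 921, or 94.2 counts per kb.

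The 5 other plexins were below the median of all genes per kb. PLXNA2 had a mean of 203 (14.7 counts per kb) and PLXNA3 of 98.4 (8.40 counts per kb). PLXNB3 (14.6), a receptor of SEMA5A, PLXNC1 (11.4) and PLXNA4 (7.85) were lowest, with 2.08, 1.13 and 0.48 counts per kb. Among the B-type plexins, which include the main receptors of class 4 semaphorins, PLXNB2 stood 4.42 times above PLXNB1 and 200 times above PLXNB3 per kb. Among the A-type plexins, PLXNA1 stood 9.11 times above PLXNA2 and 279 times above PLXNA4.

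Promoter sequences are shown for the plexins with the highest and the lowest level, PLXNB2 and PLXNA4, each of which has 1 window in the RefSeq table (GRCh38.p14). Both windows hold 300 bases around a transcript start and lie on the minus strand, at chr22:50301620-50301919 and chr7:132576421-132576720. Capitals mark CpG dinucleotides.
PLXNB2: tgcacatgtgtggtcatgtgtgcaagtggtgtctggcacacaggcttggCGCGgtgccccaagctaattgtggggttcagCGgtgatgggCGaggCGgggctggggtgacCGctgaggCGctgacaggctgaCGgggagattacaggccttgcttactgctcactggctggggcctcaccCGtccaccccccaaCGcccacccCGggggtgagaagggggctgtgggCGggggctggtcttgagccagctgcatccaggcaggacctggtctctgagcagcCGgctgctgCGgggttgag
PLXNA4: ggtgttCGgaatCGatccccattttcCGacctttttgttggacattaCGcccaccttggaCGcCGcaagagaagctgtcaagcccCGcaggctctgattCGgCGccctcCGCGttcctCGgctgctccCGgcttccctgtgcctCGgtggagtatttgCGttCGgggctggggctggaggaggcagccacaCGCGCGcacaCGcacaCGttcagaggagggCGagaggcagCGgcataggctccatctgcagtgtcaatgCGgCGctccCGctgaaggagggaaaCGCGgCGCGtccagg
The letters show 14 CpG dinucleotides for PLXNB2 and 30 for PLXNA4, so the plexin with the lower level had the richer window. Of the 32 members, 28 had a window, 13 of them several, and SEMA3A, SEMA6B, NRP1 and DPYSL2 had none. In the first window listed for a gene, members held a median of 26.5 CpG (2 to 54), against 14 over all 27305 genes of that table. At least 15 CpG were found in 19 of 28 members (67.9%) and in 48.8% of all genes. The motif TATAAA, searched on both strands, was in no first window of a member and in 12% of first windows of all genes. Over all windows it was found for 1 member, SEMA3E, and for 14% of all genes. All genes here were not restricted to protein-coding ones, and the CpG and TATAAA values of protein-coding genes alone were not computed. For genes of high level the first window held 54 CpG for PLXNA1, 52 for PLXND1, 37 for SEMA4B, 33 for NRP2, 7 for PLXNB1 and 2 for SEMA3C. The second windows of PLXNB1 and SEMA3C each held 46, so their CpG content depends on the window taken. Among genes of low level the first windows held 8 for SEMA3G and SEMA4A, 9 for PLXNC1, 14 for SEMA3D and 15 for PLXNB3. They held 23 for SEMA7A, 30 for PLXNA4 and 49 for CRMP1, so low genes were both rich and poor in CpG. The second window of PLXNC1 held 20. Which start A549 cells use was not measured here.

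Both neuropilins were among the highest genes of the set. NRP1 (chromosome 10, 33466420 to 33625190, minus strand), a co-receptor of class 3 semaphorins and of VEGF-A, had a mean of 6055, with 526 counts per kb. NRP2 (chromosome 2, 206546714 to 206662857, plus strand), a co-receptor of SEMA3F, SEMA3C and VEGF-C, had a mean of 3037, or 219 counts per kb. NRP1 was thus 2.40 times higher than NRP2 per kb of exon, 2.26 times per kb of the longest transcript and 2.01 times per kb of coding sequence.

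CRMPs were led by DPYSL2, which encodes CRMP2, the member that binds tubulin dimers and promotes axon growth. Its mean was 4246, or 582 counts per kb, 73.5% of the class. With merged exons it was the highest length-scaled value of the set, just above SEMA3C, whereas NRP1 was highest per kb of the longest transcript (1029) or coding sequence (2187). DPYSL3 (CRMP4) had a mean of 843, or 117 counts per kb, and DPYSL4 (CRMP3) of 222, or 71.3 counts per kb. DPYSL5 (CRMP5), best known from developing neurons and as an antigen in paraneoplastic disease, had a mean of 115, or 16.3 counts per kb. CRMP1, described in lung cancer cells as a suppressor of invasion, was lowest with a mean of 25.4, or 4.32 counts per kb. DPYSL2 stood 4.96 times above DPYSL3 and 135 times above CRMP1 per kb.

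Known ligands and receptors were then set side by side per kb. NRP1 had 4.97 times the value of SEMA3A, and NRP2 had 18.0 times that of SEMA3F. PLXND1 had 14.5 times the value of SEMA3E, and PLXNB2 8.14 times that of SEMA4C. Per kb of coding sequence the ratios were 43.7 for NRP2 to SEMA3F, 6.61 for PLXND1 to SEMA3E and 4.28 for PLXNB2 to SEMA4C, so the receptor was higher on both scales but by an uncertain factor. PLXNB1 had 3.46 times the value of SEMA4D per kb of exon, but 0.96 times per kb of coding sequence, so the order of these 2 genes depends on the length used. The same held for SEMA3C and NRP1, as NRP1 had 0.91 times the value of SEMA3C per kb of exon and 1.39 times per kb of coding sequence. NRP2 stood below SEMA3C on both scales, at 0.38 times per kb of exon and 0.69 times per kb of coding sequence. SEMA7A and its receptor PLXNC1 were both low, at 3.74 and 1.13 counts per kb. RNA levels of a ligand and a receptor do not show that either protein was present or bound.

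**Figure D3:**
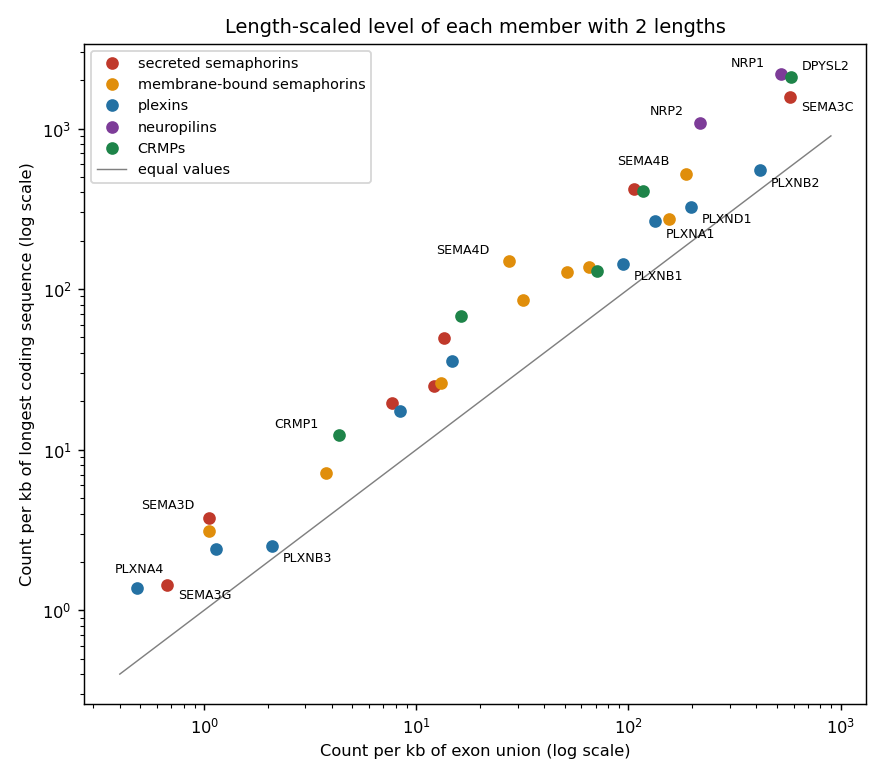
Count per kb of the longest coding sequence (y axis, log scale) against count per kb of merged exons (x axis, log scale), 1 point per member coloured by role, with a line of equal values and selected names. PLXNB3 and PLXNB2, with coding sequences of 5796 and 5514 bases in merged exons of 7007 and 7271 bases, lie closest to the line, and SEMA4D and NRP2 (2586 and 2793 bases in 14160 and 13896) lie farthest above it.

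Summed over the set and scaled by exon length, plexins held 23.7%, CRMPs 21.6%, neuropilins 20.3%, secreted semaphorins 19.7% and membrane-bound semaphorins 14.6%. The shares depend on the length used: neuropilins held the largest one without length scaling (30.0%), per kb of the longest transcript (27.5%) and per kb of coding sequence (30.5%), where plexins held 25.3%, 19.7% and 12.5%. In the whole set the 5 highest genes held 63.5% of the length-scaled level. The secreted semaphorins and the CRMPs each rested mainly on 1 gene, and the membrane-bound semaphorins did not. NRP1 held 70.6% of the neuropilin level. With 2 genes in that class this share only restates the ratio of NRP1 to NRP2, and NRP2 was itself high at 219 counts per kb.

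Many members are long genes. From first to last exon the median was 53.1 kb, against 33.9 kb over protein-coding genes of the table, and 14 of 32 members (43.8%) were over 100 kb, against 20.7%. SEMA3A (537 kb) and PLXNA4 (525 kb) were the longest and SEMA3B (9.99 kb) the shortest, and both long genes differed in level by far (106 and 0.48 counts per kb).

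Some exons are shared with other genes, which matters because the kit kept strand but a stranded count is not stated in the sources used here. In the reference annotation 11 members share exon bases with a gene on the opposite strand. For SEMA4G these are 1215 bases, 22.9% of its exons, with MRPL43 (mean 405), so the value of SEMA4G is uncertain if strand was not used. CRMP1 shares 159 bases with EVC (mean 880), and PLXNC1 shares 177 bases with CEP83 (mean 573). PLXNB3 shares 1432 bases, 20.4% of its exons, with SRPK3 on its own strand. The value of PLXNB3 and its ratio to PLXNB2 are therefore uncertain whether or not strand was used.

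The other genes of the pathway were taken from lists of co-receptors, VEGF ligands, GTPases, kinases and cytoskeletal partners. Of 14 receptors and co-receptors 9 were in the table and 6 reached a mean of 100. The highest per kb were the integrin subunit ITGB1 (1149 counts per kb), which takes part in SEMA7A signalling, the receptor tyrosine kinase MET (860), a partner of B-type plexins, and the adhesion gene NRCAM (665). CD72, a receptor of SEMA4D on B cells, had a mean of 4.31, and KDR, FLT1, CNTN2, TREM2 and TYROBP were not among the rows used here. The VEGF ligands of neuropilins were VEGFB (169 counts per kb), VEGFC (88.4) and VEGFA (52.0), with PGF at a mean of 7.64. VEGFD was listed by both of its names and appears in the table under the older one, FIGF, at a mean of 27.0.

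Intracellular partners were measured in full. All 16 small GTPases and regulators were in the table, 14 of them at 100 or more, with RHOA (938 counts per kb), RAC1 (386) and RRAS (288), a substrate of plexins, at the top and RND2 at a mean of 3.97. All 14 kinases were present and 12 reached 100, led by ROCK2 (328 counts per kb), PAK2 (265) and the focal adhesion kinase PTK2 (257). CDK5 and GSK3B, the kinases that phosphorylate CRMPs in turn, had 67.0 and 118 counts per kb. All 12 cytoskeletal partners and adaptors reached 100, led by the actin crosslinker FLNA (2331 counts per kb), cofilin CFL1 (1325) and the kinesin KIF5B (785). CYFIP1 had a mean of 2480 and no length in the reference annotation.

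**Figure D4:**
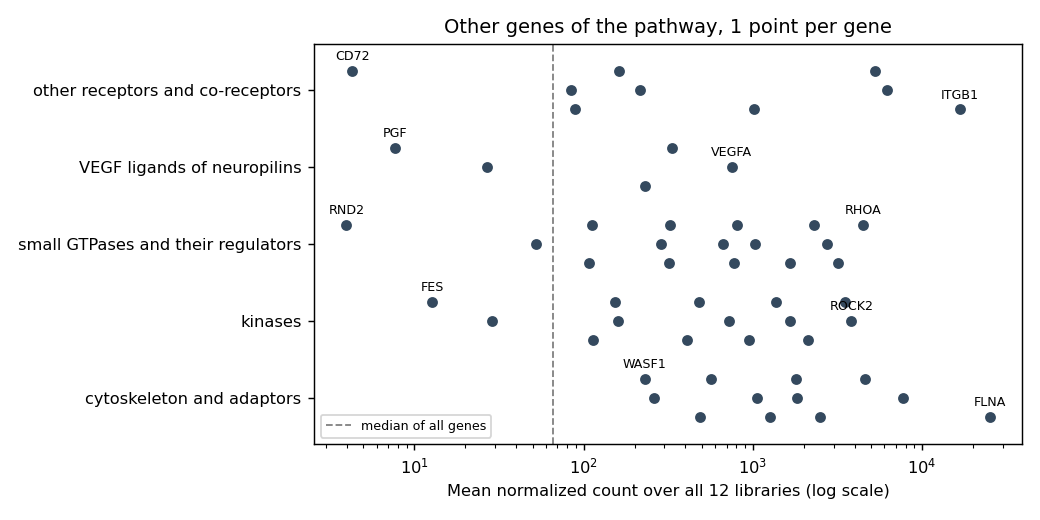
Levels of the other pathway genes, as the mean normalized count of both groups together (log x axis), 1 point per gene in a row for each list, with the lowest and highest gene named and a dashed line at the median of all genes (65.8). Every cytoskeletal partner lies to the right of the line, whereas 7 genes lie to its left, CD72, PGF, FIGF, RND2, TIAM1, FES and FYN.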

How the data were processed

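Total RNA was sequenced from 12 libraries of A549 cells, 6 siYTHDC1 and 6 siSCR by their titles. Per the labels, libraries were stranded and depleted of ribosomal RNA. The authors used STAR for alignment (hg19), HTSeq for counts per gene of Gencode release 19, and DESeq2 for the comparison, in a model that also held the sequencing batch.

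The signal the authors deposited and that was used here is the mean normalized count of each gene over all 12 libraries, that is, counts divided by library size factors. The table further holds 5 columns of the authors' comparison (fold change, standard error, statistic, p-value and adjusted p-value). These hold the study's findings and were not used, so no test was run and no group was compared. Columns per library were not used here, and depth per library is unknown. The members and gene lists were chosen with earlier results of these data known.

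Where a symbol had several rows, the one with the highest mean was kept; no member had more than 1. Gene IDs without version numbers matched Gencode release 44 mapped to GRCh37 for 21798 of 22564 rows (96.6%) and all 32 members. Levels were divided by the length of merged exons, and as alternatives by the longest transcript or coding sequence or by none. Lengths come from a later release than the authors counted on. Promoter windows come from RefSeq (GRCh38.p14), matched by symbol. All members are named; of other lists, the 3 highest per kb and those at or under 10 or missing are named, and other genes were added after their values were seen. Python 3.11.15, pandas 2.3.3, numpy 2.4.6 and matplotlib 3.10.9 were used, and functions were tested on simulated data. 1 marker is not reported here.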

Additional observations from a re-analysis of the deposited data

How the results depend on the processing

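The order within a class and the shares rest on the length used. With the longest coding sequence in place of merged exons, plexins held 12.5% of the members' level in place of 23.7%, the only one of 41 recomputed shares and counts that moved by over 1.5 times. The neuropilin share came close to that limit, at 30.5% per coding sequence in place of 20.3%. Ratios between genes were less stable: of 25, those that moved by over 1.5 times numbered 7 without scaling, 6 per longest transcript and 9 per coding sequence, among them NRP2 to SEMA3F at 51.8, 28.0 and 43.7 in place of 18.0. The gene that led its class was the same under each of the 3 other length choices in each of the 5 classes. The count of members at a mean of 100 or more was 20, and 23 and 17 at minimums of 50 and 200. The count above the median of all genes was 22 without length scaling and 15 with it, among protein-coding genes, or among genes at 10 or more. Summing all rows of a symbol could change no value, because no member had more than 1 row. The values recomputed in that way are counted among the 41 and were fixed in advance. No paired analysis was possible because the table used holds no value per library, and for the same reason no library could be left out. Members with means under 10 rest on few reads, and levels without an SD do not show which neighbouring genes differ.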
